A study of Mus musculus with 12 samples.

Results

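The splicing factor genes described here are the protein-coding genes named as SR proteins (Srsf1 to Srsf12), heterogeneous nuclear ribonucleoproteins (hnRNPs), proteins of the spliceosomal small nuclear ribonucleoproteins (snRNPs) with a Snrp name, or subunits of the SF3A and SF3B complexes. The rule uses gene name and biotype alone, and 52 of the 52550 genes of the deposited table met this rule. They comprise 11 SR protein genes, 20 hnRNP genes, 12 Snrp genes and 9 SF3A or SF3B genes. RNA was sequenced from a pair of mouse mammary carcinoma lines, D2A1, known as metastatic, and D2.OR, known for lying dormant after it spreads. The 4 groups were D2A1 grown in 2D on plastic, D2A1 grown in 3D with Matrigel, D2.OR in 2D and D2.OR in 3D, with 3 libraries each and 12 in all. No group carried an engineered allele or a drug treatment in the labels. Each line stands for 1 tumor, and each library pooled the cells of several wells. The study's methods describe 2D cultures both in a standard medium and, beside the 3D assay, in the 3D medium. For the sequenced cells the methods refer to the cell culture section, which seeds 2D cells in the standard medium, without naming the medium again. A change of medium may thus go with the 3D culture and cannot be told apart from it. The replicate number is also the batch number, and each batch was run in a lane of its own. Since nothing states that the batches came from separately thawed cultures, p-values measure the spread between these libraries.

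Pre-mRNA splicing removes introns in the spliceosome, which is built from the U1, U2, U4, U5 and U6 snRNPs. The Sm proteins (Snrpb, Snrpd1, Snrpd2, Snrpd3, Snrpe, Snrpf, Snrpg) form a ring around the snRNA of most of these particles. Snrpa and Snrpc are specific to U1, and Snrpa1 and Snrpb2 to U2. The SF3A and SF3B complexes belong to the U2 particle and hold it at the branch point. SR proteins bind exons and favor their inclusion, whereas many hnRNPs bind introns or exons and oppose the use of a site, so the balance of both families is known to shift splice site choice.

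Library totals ranged from 47589611 to 73325069 expected counts (median 61747126), and the 52 genes took 0.97% to 1.49% of them. Summed TPM (RSEM's level per gene, scaled for transcript length and library size) of 5 luminal epithelial markers was 94.0 to 297 in D2A1 and 416 to 1715 in D2.OR. In D2A1 nearly all of it was Krt18, while Krt8 was at most 2.31 TPM and Cdh1 at most 0.28 TPM, so the defining epithelial markers other than Krt18 were near 0 in that line. Markers of endothelium summed to at most 0.4 TPM and the leukocyte markers Ptprc and Cd3e reached at most 0.16 TPM, while the macrophage marker Cd68 was at 2.22 to 32.1 TPM. The adipocyte genes Adipoq and Plin1 summed to 6.5 to 77.0 TPM in D2.OR in 3D and to at most 1.6 TPM elsewhere. Nearly all of this sum was Plin1, and Adipoq was at most 2.03 TPM. The part of these genes in the results below was not tested. Both D2A1 libraries of batch 1 stood apart in the mesenchymal markers (summed TPM 2501 and 3154, against 749 to 1123 in the other D2A1 libraries), a sum that was nearly all Vim. The D2.OR libraries of batch 1 were also the highest of their groups, at 5246 in 2D and 5318 in 3D, against 2833 to 3942 in the other D2.OR libraries. In D2.OR, Cdh1 was at 183 TPM (2D) and 61.3 TPM (3D) in batch 1 and at 8.93 to 23.0 TPM in batches 2 and 3. The batch 1 library of D2A1 in 2D decided several counts below, which are given with and without it.

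Of the 52 genes, 50 were at 12.1 TPM or more in every library. The level was highest for Hnrnpa3 among the hnRNPs, with a mean of 927 TPM over the 12 libraries and a range from 679 to 1112 TPM. Snrpb led the Snrp genes (mean 444 TPM), Srsf5 the SR proteins (381 TPM) and Sf3b3 the SF3 subunits (198 TPM). The lowest of the genes expressed in all libraries was Sf3b5, a small subunit of SF3B, at 12.1 to 20.3 TPM. Srsf12, the SR protein gene with the lowest level, was at 0 to 0.05 TPM (0 to 2 counts per library) and was the only member left out by the filter on low counts. Snrpn was listed at 0 in all 6 D2A1 libraries and at 1.67 to 3.55 TPM in D2.OR. The steadiest member was Hnrnpll, a regulator of alternative exons, which stayed between 58.0 and 65.5 TPM. Group means had their widest range, on a log2(TPM + 1) scale, for Hnrnpab among the hnRNPs (0.93), Srsf7 among the SR proteins (0.74), Snrpn among the Snrp genes (1.91) and Sf3a1 among the SF3 subunits (1.07). Of the 51 members above the filter, 33 had their highest group mean in D2A1 in 3D while 19 had their lowest in D2.OR in 2D and 16 in D2A1 in 2D. RSEM, the program that counted the reads, divides a read that fits several genes, and 30 members had a count that was not whole (more than 0.005 from a whole number) in at least 1 library. These members share reads with other genes, so their levels are less certain than those of the 22 members, Sf3a1, Snrpb, Snrpb2 and Hnrnpul2 among them, whose counts were whole in every library.

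**Figure D1:**
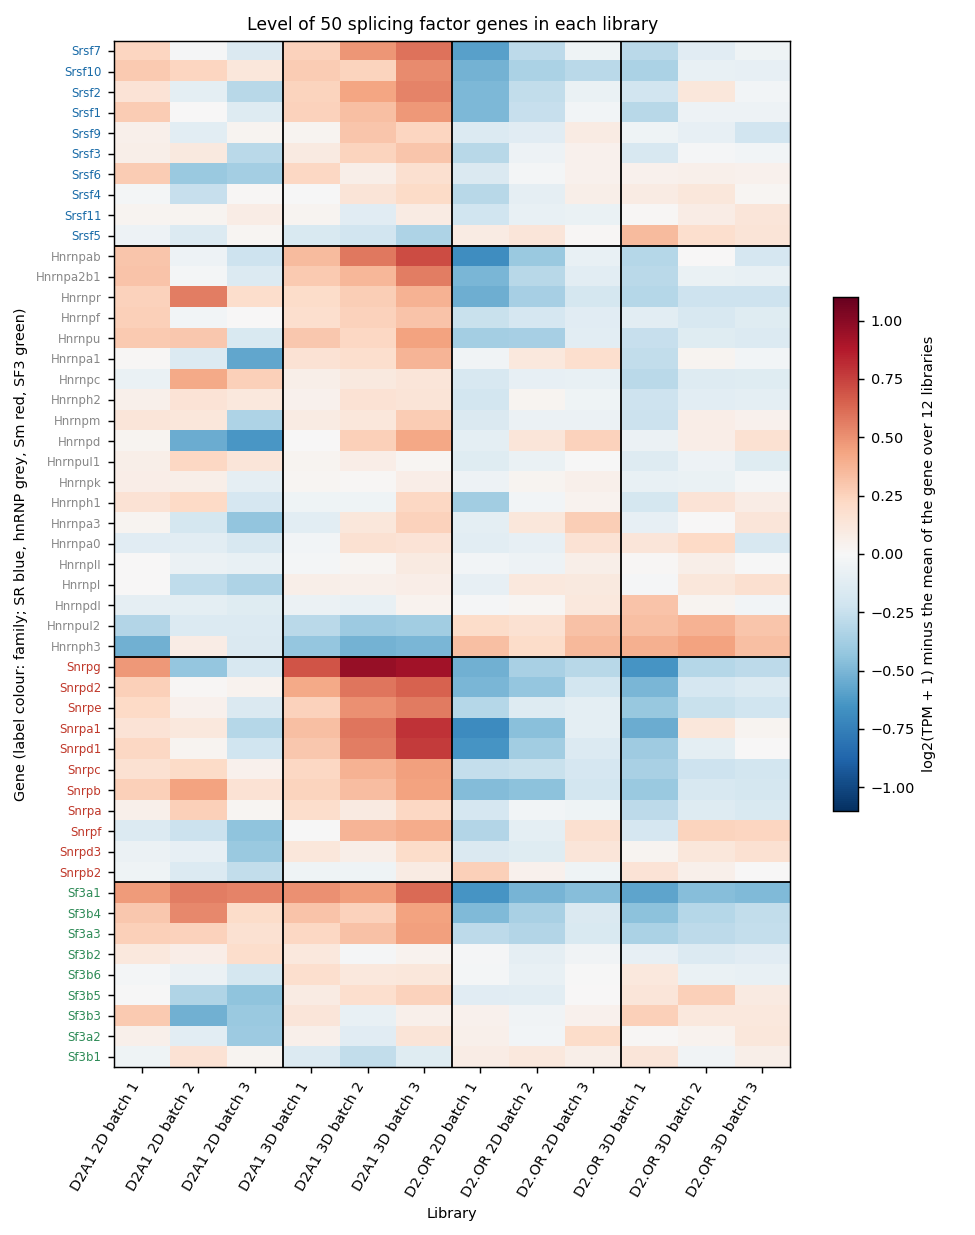
Heat map of 50 splicing factor genes (rows, ordered within each family by the 3D line difference) in the 12 libraries (columns); color gives log2(TPM + 1) minus the mean of the gene over all libraries, and Snrpn and Srsf12 are left out. Most Snrp genes are highest in the D2A1 3D libraries of batches 2 and 3, and Sf3a1 is high in all 6 D2A1 libraries and low in all 6 D2.OR libraries.

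To show what the members' start regions share, the RefSeq promoter windows (GRCm38.p6, 250 bases before to 50 after the start) were searched for short motifs on both strands, taking the first window of each gene. A window was matched for 46 of the 52 members. The motif CCGGAAG, the core bound by ETS-family factors, was present in 16 of the 46 (34.8%), in 17.2% of 11148 genes tested for expression and in 9.12% of all 27025 genes of the table. The GC box GGGCGG was present in 69.6% of the members and 62.3% of the tested genes, the CCAAT box (CCAAT) in 47.8% and 38.8%, the E-box CACGTG in 10.9% and 9.87%, the TATA box TATAAA in 6 of the 46 and 7.55%, the YY1 core AAGATGGC in 4.35% and 4.49%, and the NRF1 core GCGCATGCG in 2.17% and 3.53%. None of these motifs is contained in another, and matches to different motifs may overlap in a window. The share with the ETS core was 38.1% among the 21 matched members that were lower in D2.OR in 3D and 32.0% among the other 25. Median GC content of the windows was 60.15% for members and 52.7% for all genes of the table, and it was not computed for the genes tested for expression. These are matches of letters and show no binding.

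Bases directly before the RefSeq start are shown for 2 members lower in D2.OR in 3D (Sf3a1 and Hnrnpf) and 2 members higher in D2.OR (Snrpb2 in 2D, Srsf5 in both cultures), because all 4 carry the ETS core whichever way they differed. Capitals mark CCGGAAG or its reverse complement, and each sequence reads 5′ to 3′ toward the start.
Sf3a1 (chr11:4160294-4160353, + strand): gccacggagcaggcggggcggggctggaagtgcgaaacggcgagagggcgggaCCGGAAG
Hnrnpf (chr6:117900240-117900339, + strand): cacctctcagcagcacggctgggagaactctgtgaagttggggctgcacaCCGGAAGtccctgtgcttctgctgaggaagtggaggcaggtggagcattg
Snrpb2 (chr2:143062969-143063068, + strand): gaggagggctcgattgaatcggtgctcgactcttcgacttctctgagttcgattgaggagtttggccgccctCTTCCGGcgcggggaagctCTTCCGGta
Srsf5 (chr12:80945399-80945498, + strand): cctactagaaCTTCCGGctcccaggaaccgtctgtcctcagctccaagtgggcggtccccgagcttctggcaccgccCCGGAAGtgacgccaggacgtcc
The core lies 7 bases before the start in Sf3a1 and 50 in Hnrnpf, and Snrpb2 and Srsf5 each hold 2 copies within the 100 bases shown. The GENCODE annotation starts some of these genes earlier, so that 4 of the bases shown for Sf3a1, 16 for Hnrnpf, 30 for Snrpb2 and 0 for Srsf5 lie in its exons, and both copies of Snrpb2 lie inside the GENCODE transcript.

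The first comparison was between the lines. The clearest difference was Snrpn, an imprinted gene whose protein SmN replaces SmB in neural snRNPs and which lies on chromosome 7 (GRCm38, 59982495 to 60140219, minus strand). It had 0 counts in each of the 6 D2A1 libraries. In D2.OR it had 214, 129 and 96.9 expected counts in 2D and 188, 246 and 116 in 3D, so the groups did not overlap in either culture. Its level in D2.OR was 2.52 ± 0.578 CPM in 2D and 2.94 ± 1.04 CPM in 3D (counts scaled to TMM-normalized library size, SD, n = 3), at least 46.6-fold and 66.4-fold higher than D2A1 with 3 counts per library taken as the floor (edgeR quasi-likelihood test with a batch term, adjusted p = 0.000131 and 9.9e-05). Even in D2.OR the level was low beside Snrpb, which encodes SmB, at 311 to 383 TPM. Snrpn counts were not whole in any D2.OR library. Adjusted p stayed below the threshold of 0.05 in all 23 alternatives that gave a value, in both cultures.

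The 100 bases before the Snrpn start that it shares with Snurf, the upstream reading frame on the same transcript, are shown because this is the member listed at 0 in 1 line, with its CG dinucleotides in capitals. Of 100 bases, 3 CG dinucleotides were counted. RefSeq lists 4 start windows for Snrpn, and the motif search above took the first, chr7:60450128-60450427 (- strand), whereas the bases shown belong to a start within the gene span given above.
Snrpn (chr7:60005200-60005299, - strand): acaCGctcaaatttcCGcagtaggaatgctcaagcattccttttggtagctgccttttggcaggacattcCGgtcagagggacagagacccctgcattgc

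Among the SF3 subunits, Sf3a1 showed the same line difference in both cultures. It encodes the large subunit of SF3A, which is needed for the mature U2 snRNP (chromosome 11, 4160350 to 4182541, plus strand). In 2D it was at 69.4, 74.1 and 73.5 TPM in D2A1 and at 31.6, 34.9 and 35.9 TPM in D2.OR. In 3D it was at 71.2, 69.1 and 77.5 TPM in D2A1 and at 33.1, 35.9 and 35.5 TPM in D2.OR. All 6 D2.OR libraries lay below all 6 D2A1 libraries, with a log2 fold change of -0.94 (SE 0.078, adjusted p = 1.98e-05, edgeR) in 2D and -1.09 (SE 0.078, adjusted p = 7.93e-06) in 3D. Sf3a1 passed the threshold in all 24 alternatives of each comparison. Sf3a3, its partner in SF3A, was at 76.2 to 81.5 TPM in D2A1 and 54.2 to 60.6 TPM in D2.OR in 2D, and the difference was -0.36 in 2D and -0.69 in 3D on the log2 scale (adjusted p = 0.0113 and 0.000342). The Sf3a3 call in 2D was lost in 3 of 24 alternatives. The third SF3A subunit, Sf3a2, went the other way in 2D, at 44.4 to 61.3 TPM in D2A1 and 57.7 to 67.9 TPM in D2.OR (log2 fold change 0.41, adjusted p = 0.0167), and its value in 3D was 0.10 (adjusted p = 0.492). The Sf3a2 call in 2D was lost in 7 of 24 alternatives, limma on TPM and scaling by the library total among them. In SF3B, Sf3b4 was lower in D2.OR in both cultures (-0.55 and -0.71, adjusted p = 0.00269 and 0.00059) and Sf3b2 was lower in 3D (-0.20, adjusted p = 0.0489), a call that was lost in 18 of 24 alternatives. Sf3b1, which contacts the branch point and is the member most often mutated in human tumors, was at 122 to 140 TPM in D2A1 and 132 to 137 TPM in D2.OR in 2D, with log2 fold changes of 0.14 and 0.13 (adjusted p = 0.171 and 0.194).

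A further 3 genes were higher in D2.OR in both cultures. Hnrnph3, a relative of hnRNP H, was at 17.5, 27.1 and 22.8 TPM in D2A1 and 32.5, 29.7 and 33.1 TPM in D2.OR in 2D. In 3D the D2A1 libraries were at 18.9, 17.6 and 17.8 TPM and the D2.OR libraries at 34.0, 35.1 and 32.6 TPM, with no overlap in either culture (log2 fold changes 0.74 with SE 0.153 and 0.87 with SE 0.153, adjusted p = 0.00374 and 0.00134, edgeR). Without replicate 3 the 2D call of Hnrnph3 was lost, with an adjusted p of 0.0693. Hnrnpul2, a nuclear scaffold-associated protein of the hnRNP U group, was at 63.0 to 71.1 TPM in D2A1 and 88.8 to 98.8 TPM in D2.OR in 2D, and at 59.6 to 64.0 TPM and 97.6 to 103 TPM in 3D. Its log2 fold change was 0.57 (SE 0.081, adjusted p = 0.000434) in 2D and 0.68 (SE 0.081, adjusted p = 0.000147) in 3D, past the threshold in all 24 alternatives of each. Srsf5 was at 340 to 383 TPM in D2A1 and 382 to 416 TPM in D2.OR in 2D, where the ranges overlapped slightly in TPM but not in TMM-normalized CPM. In 3D it was at 337, 326 and 299 TPM in D2A1 and 481, 429 and 416 TPM in D2.OR (log2 fold changes 0.33 and 0.47, adjusted p = 0.0102 and 0.0013). The 2D call of Srsf5 was lost in 7 of 24 alternatives, and the 3D call in none.

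**Figure D2:**
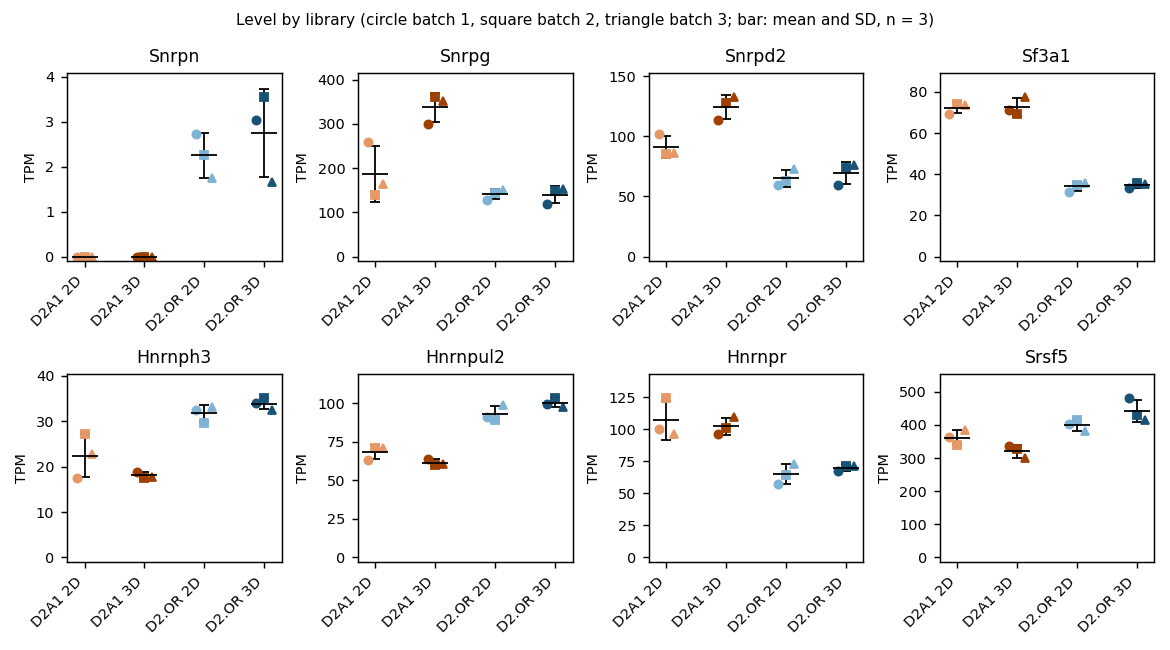
TPM of 8 members in the 12 libraries, by group, with symbols for the batch and bars for the mean and SD of 3 libraries. Snrpn is at 0 TPM in all D2A1 libraries, the 6 D2.OR libraries lie below all D2A1 libraries for Sf3a1 and Hnrnpr and above them for Hnrnph3 and Hnrnpul2, and Snrpg is at 300 to 361 TPM in D2A1 in 3D and at 118 to 258 TPM in the other groups.

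Over all members, 13 of 51 passed the test in the 2D line comparison (25.5%), 7 of them higher in D2.OR and 6 lower, whereas 49.8% of the 16823 genes tested passed, 25.4% higher and 24.4% lower. The members' shares of 13.7% higher and 11.8% lower were below that background. Libraries did not overlap for 13 members that were above and 9 that were below in D2.OR, where 27.6% and 25.6% of all genes did not overlap. Besides the genes above, Hnrnpdl (0.36, adjusted p = 0.0161) and the U2 protein gene Snrpb2 (0.42, adjusted p = 0.00559) were higher. Snrpb2 was at 59.8 to 69.9 TPM in D2A1 and 70.0 to 86.9 TPM in D2.OR. Hnrnpr, Snrpb and Srsf10 were lower. Hnrnpr, an hnRNP abundant in neurons, was at 100, 124 and 96.1 TPM in D2A1 and 57.5, 64.6 and 72.9 TPM in D2.OR (log2 fold change -0.63, SE 0.114, adjusted p = 0.00176). Snrpb was at 520, 589 and 483 TPM in D2A1 and 311, 316 and 375 TPM in D2.OR (-0.54, SE 0.107, adjusted p = 0.0029). Srsf10, an SR protein that represses splicing when dephosphorylated, had a log2 fold change of -0.52 (SE 0.112, adjusted p = 0.0045). Without replicate 2 the 2D calls of Hnrnpr, Snrpb, Srsf10 and Sf3b4 were lost, with adjusted p of 0.055, 0.0916, 0.0918 and 0.0791. By family, 4 of 20 hnRNP genes, 2 of 10 SR protein genes, 3 of 12 Snrp genes and 4 of 9 SF3 genes passed.

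The split of the 2D calls depended on the scaling and on the libraries used. With TMM, the median log2 fold change was 0.008 for members and -0.003 for all genes. With the library total alone, which moved the median of all genes to -0.167, 4 members were called higher and 16 lower, and with limma on log2(TPM + 1) 3 were higher and 14 lower (52.3% and 47.2% of all genes called in either direction). Leaving out the batch 1 library of D2A1 in 2D gave 17 higher and 7 lower, and leaving out its batch 3 library gave 6 and 12 (51.2% and 44.3% of all genes). Leaving out all of replicate 1 gave 15 and 7, all of replicate 2 gave 3 and 1, and all of replicate 3 gave 2 and 7, where 53.8%, 24.9% and 31.8% of all genes were called. Of the genes higher in 2D, Hnrnpdl lost its call in 9 of 24 alternatives and Snrpb2 in 4. Within batches 1, 2 and 3, the median difference over the members was -0.12, 0.03 and 0.26, so the members as a whole showed no one direction in 2D. Snrpn, Hnrnpul2 and Sf3a1 had the same direction in every batch and kept their calls throughout.

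In 3D most calls went one way. Of the 51 members, 28 passed the test (54.9%, and 53.8% of all genes did), 4 higher in D2.OR (7.84%) and 24 lower (47.1%). Of all genes, 27.7% were higher and 26.1% lower. The 4 higher genes were Snrpn, Hnrnph3, Hnrnpul2 and Srsf5, the same 4 that were also higher in 2D. The 24 lower genes included all 6 that were lower in 2D and 18 others. Libraries did not overlap for 29 members that were below and 6 that were above in D2.OR, where 30.2% and 29.9% of all genes did not overlap. The median log2 fold change was -0.23 for members and 0.001 for all genes, and the within-batch medians were -0.24, -0.20 and -0.30.

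The Snrp genes had the largest share. Of 12, 8 were lower in D2.OR in 3D and 1, Snrpn, was higher. Snrpg, which encodes the SmG protein of the Sm ring, was at 300, 361 and 352 TPM in D2A1 and at 118, 149 and 152 TPM in D2.OR. Every D2.OR library was below every D2A1 library, with a log2 fold change of -1.13 (SE 0.212, adjusted p = 0.00192, edgeR). Snrpd2 was at 113, 128 and 133 TPM in D2A1 and at 59.1, 73.9 and 76.1 TPM in D2.OR (-0.87, SE 0.139, adjusted p = 0.000763). Snrpe was at 311, 371 and 387 TPM in D2A1 and at 196, 220 and 224 TPM in D2.OR (-0.79, SE 0.141, adjusted p = 0.00146). These 3 Sm genes kept their call in all 24 alternatives. Of the other Sm ring genes, Snrpd1 (-0.75, adjusted p = 0.00663) and Snrpb (-0.63, adjusted p = 0.00109) were lower too, whereas Snrpd3 (-0.02, adjusted p = 0.896) and Snrpf (-0.20, adjusted p = 0.317) did not pass. The U1 genes Snrpc (-0.66, adjusted p = 0.00055) and Snrpa (-0.40, adjusted p = 0.00302) were lower. Of the U2 genes, Snrpa1 was lower (-0.76, adjusted p = 0.0126) and Snrpb2 was at 0.03 (adjusted p = 0.807). Over the alternatives, 6 to 9 Snrp genes were lower.

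Summed TPM of the Snrp genes was 2146, 2403 and 2555 in D2A1 in 3D and 1394, 1634 and 1645 in D2.OR in 3D. The ratio of D2.OR to D2A1 within a batch was 0.65, 0.68 and 0.644. In 2D the same ratio was 0.68, 0.77 and 0.982, so the batches differed more there.

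Among SR proteins, 5 of 10 were lower in D2.OR in 3D and Srsf5 was higher. Srsf7, an SR protein with a zinc knuckle beside its RNA-binding domain, was at 90.7, 106 and 115 TPM in D2A1 and 61.8, 69.6 and 73.6 TPM in D2.OR (-0.64, SE 0.164, adjusted p = 0.00966). Srsf10 (-0.57), Srsf2 (-0.49), Srsf1 (-0.49) and Srsf9 (-0.35) were lower as well, and Srsf1, Srsf2 and Srsf9 each lost the call in 6 or 7 of 24 alternatives. Srsf3 and Srsf6 had values of -0.25 and -0.21 and did not pass (adjusted p = 0.142 and 0.267). Among hnRNPs, 7 of 20 were lower, beside 26.1% of all genes. Hnrnpab was at 565, 662 and 730 TPM in D2A1 and at 356, 444 and 391 TPM in D2.OR (-0.73, SE 0.198, adjusted p = 0.0127). Hnrnpa2b1, an abundant hnRNP that also sorts RNA, was at 1030, 1088 and 1246 TPM in D2A1 and at 689, 803 and 799 TPM in D2.OR (-0.59, SE 0.166, adjusted p = 0.0148). Hnrnpr (-0.55), Hnrnpf (-0.50), Hnrnpu (-0.43), Hnrnpc (-0.32) and Hnrnph2 (-0.28) were lower as well, and Hnrnpu lost its call in 10 of 24 alternatives. Hnrnpa3 (-0.11, adjusted p = 0.558) and Hnrnpk (-0.15, adjusted p = 0.213) did not pass, nor did Hnrnpa1 (-0.35, adjusted p = 0.108).

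**Figure D3:**
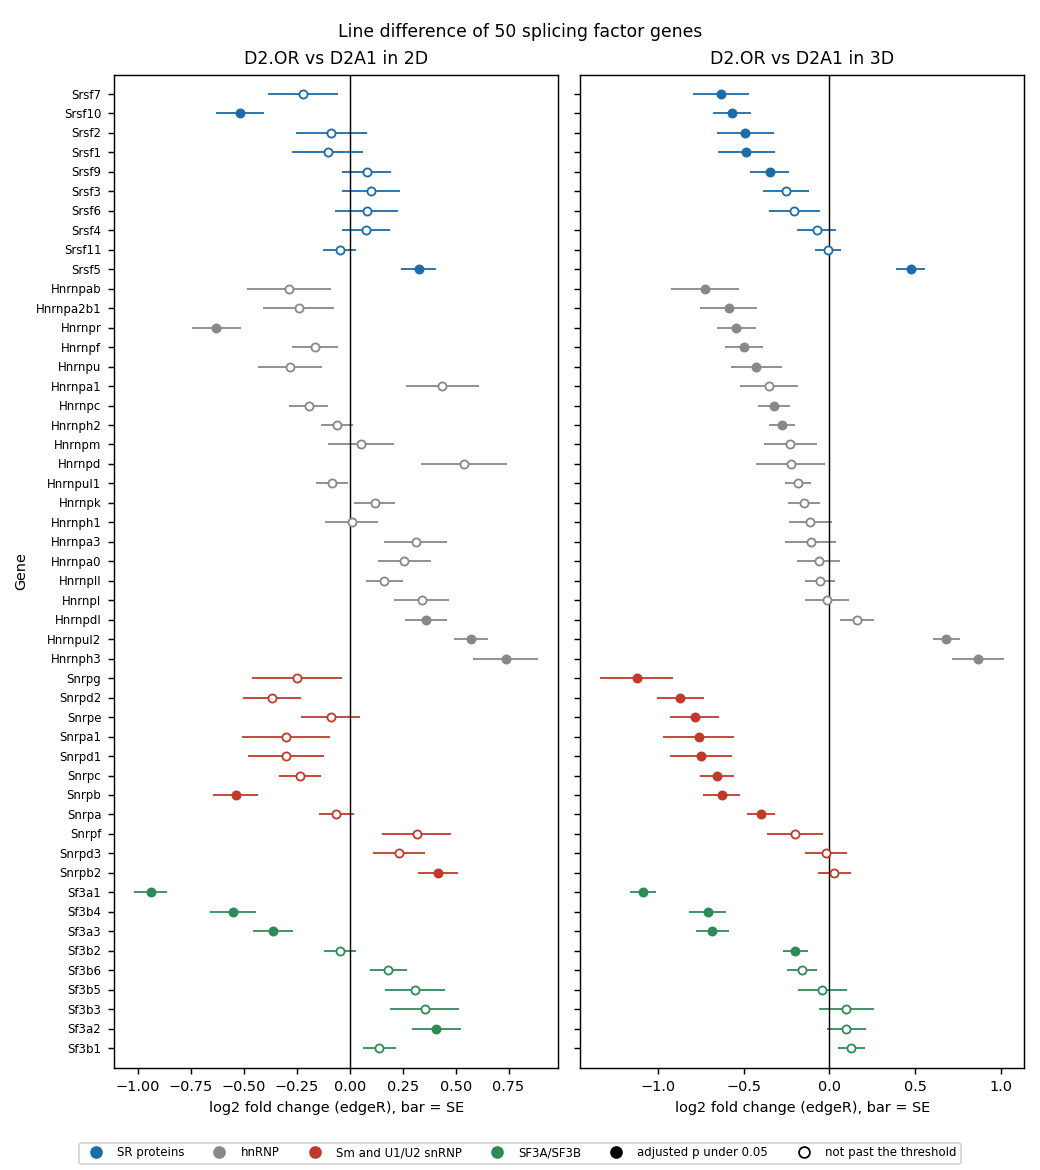
Log2 fold change of D2.OR against D2A1 (edgeR, bars are SE) for 50 members in 2D (left) and 3D (right), colored by family and filled where the adjusted p was under 0.05; Snrpn, at 0 in D2A1, is left out. Members scatter around 0 in 2D, and in 3D 24 filled points lie left of 0 and 3 right of it.

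The number of 3D calls depended on the libraries used, for members and for all genes. Without replicate 2, 11 members were lower, without replicate 3, 14, and without the batch 3 library of D2A1 in 3D, 14, always with the same count of 4 higher. The share of all genes called went from 53.8% to 31.0%, 35.2% and 42.5% in these settings. Other scalings gave 23 to 29 lower (50.4% to 55.4% of all genes called). Of 8 proliferation markers (Mki67, Top2a, Pcna, Mcm2, Ccnb1, Cdk1, Bub1, Aurka), 5 were lower in D2.OR in 3D (26.1% of all genes were) and 1, Mcm2, in 2D (24.4%). Mcm2, a subunit of the replicative helicase, was at -1.20 in 2D and -1.19 in 3D (adjusted p = 0.000763 and 0.000659), and the mitotic kinase gene Aurka at -0.52 and -1.21 (adjusted p = 0.153 and 0.00539). Their summed TPM was 865, 1258 and 1396 in D2A1 in 3D and 537, 834 and 823 in D2.OR in 3D. The part of proliferation in the splicing factor differences was not tested. In bulk RNA a lower level per cell and fewer cells of one kind cannot be told apart.

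**Figure D4:**
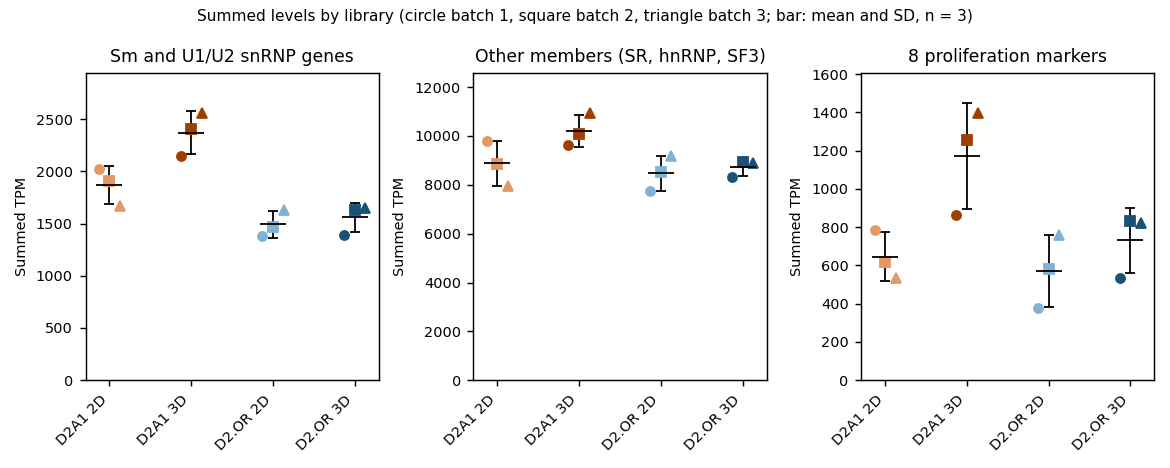
Summed TPM of the Snrp genes (left), of the other splicing factor genes (middle) and of 8 proliferation markers (right) in the 12 libraries, with symbols for the batch and bars for the mean and SD of 3 libraries. D2A1 in 3D is highest for the Snrp genes, at 2146 to 2555 TPM, and the batch 1 library of D2A1 in 3D is the lowest of its group in all 3 panels.

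The second comparison asked whether 3D culture changed these genes within a line. In D2A1, no member passed the test (0 of 51, where 3.48% of all genes did), yet 45 of 51 had a positive log2 fold change (50.4% of all genes did) and 28 had an unadjusted p under 0.05 (31.4% of all genes). The median was 0.30 for members and 0.004 for all genes. DESeq2 called 17 members higher, where it called 23.1% of all genes. For 25 members all 3D libraries lay above all 2D libraries, and none lay below (14.2% and 11.8% of all genes). The 3 members with the smallest p were Snrpg, Sf3b6 and Snrpd2. Snrpg was at 258, 138 and 164 TPM in 2D and at 300, 361 and 352 TPM in 3D (log2 fold change 0.90, SE 0.213, adjusted p = 0.0517). Sf3b6, the SF3B subunit that touches the branch point adenosine, was at 69.5 to 78.1 TPM in 2D and 86.0 to 90.1 TPM in 3D (0.36, SE 0.088, adjusted p = 0.0542). Snrpd2 was at 85.2 to 102 TPM in 2D and 113 to 133 TPM in 3D (0.55, SE 0.139, adjusted p = 0.0553). The 3D libraries of all 3 genes lay above the 2D libraries.

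The batches differed in this comparison. For batch 1 the median difference over the 51 members was 0.04 on the log2 CPM scale, with a range from -0.13 to 0.26. The medians of batches 2 and 3 were 0.32 and 0.53. For Snrpg the differences were 0.25, 1.35 and 1.21, and for Hnrnpd, an AU-rich element binding protein, 0.04, 1.01 and 1.22. Without replicate 1, 31 members were called higher (36.3% of all genes were called), and without the batch 1 library of D2A1 in 2D alone, 31 (30.3% of all genes). Without the batch 1 library of D2A1 in 3D it was 10 (12.8%). Summed TPM of all members in D2A1 in 2D was 11834, 10769 and 9632 over the batches in order, and in 3D it was 11788, 12474 and 13485. The proliferation markers were at 785, 618 and 537 TPM in 2D and 865, 1258 and 1396 TPM in 3D. Their part in the difference between batches was not tested. Snrpn, present in every D2.OR library, had 0 counts in both D2A1 libraries of batch 1.

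In D2.OR, no member passed the test either (0 of 51, where 1.62% of all genes did). Only Snrpa had an unadjusted p under 0.05 (17.6% of all genes did). DESeq2 called no member, where it called 7.26% of all genes, and every other alternative called none (0.0% to 8.38% of all genes). The median was 0.02, the range from -0.23 to 0.25 and the SE between 0.075 and 0.21, apart from 0.267 for Snrpn. Snrpa, which encodes an RNA-binding protein of U1, was at 107, 120 and 118 TPM in 2D and 99.7, 111 and 108 TPM in 3D, and its CPM in 3D lay below that in 2D in every library (log2 fold change -0.19, SE 0.082, adjusted p = 0.272). Sf3b2 was at -0.13 and Srsf11 at 0.12 (adjusted p = 0.41 and 0.457). Median differences within batches were 0.00, 0.08 and -0.04. Summed TPM of all members was 9121, 9994 and 10805 in 2D and 9719, 10572 and 10541 in 3D. The proliferation markers summed to 379, 579 and 757 TPM in 2D and 537, 834 and 823 TPM in 3D, with a median log2 fold change of 0.29 and none of the 8 past the threshold (edgeR), all 8 with a positive value.

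**Figure D5:**
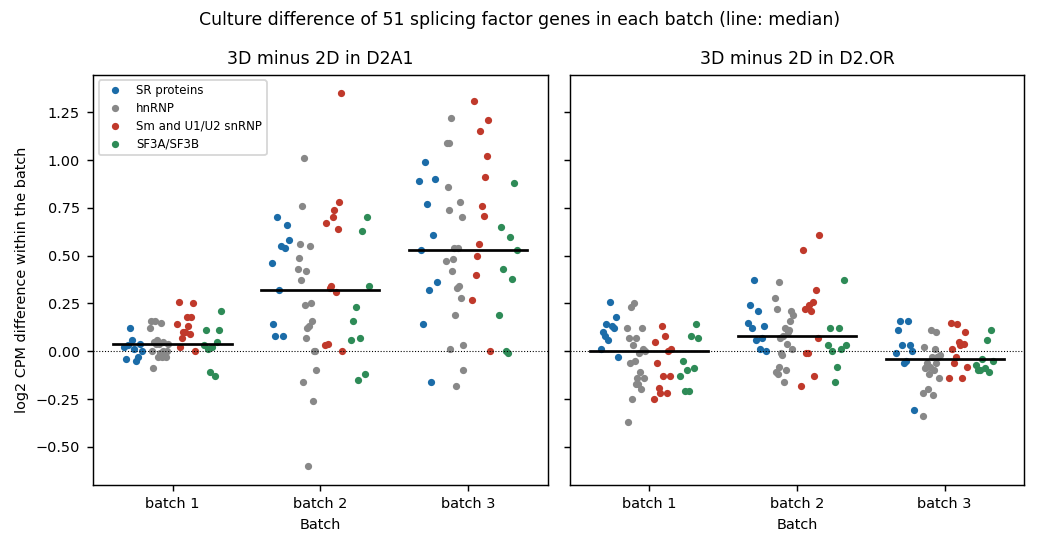
Difference between the 3D and the 2D library of each batch, on the log2 CPM scale, for the 51 members tested in D2A1 (left) and D2.OR (right), colored by family, with the median of each batch as a line. The medians of batches 1, 2 and 3 are 0.04, 0.32 and 0.53 in D2A1 and 0.00, 0.08 and -0.04 in D2.OR.

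The interaction of line and culture tests whether the 3D effect differed between the lines. No member passed (0 of 51, where 0.0238% of all genes did), although 45 had a negative value, that is a lower 3D effect in D2.OR, and 11 had an unadjusted p under 0.05 (17.8% of all genes). The median was -0.31 for members and -0.006 for all genes, and for members -0.18 without the batch 3 library of D2A1 in 2D and -0.14 without replicate 3. Within batches 1, 2 and 3, 29, 39 and 48 of the 51 members had a negative value. DESeq2 called 2 members lower, where it called 5.96% of all genes. Snrpe was highest in rank, with within-batch 3D effects of 0.09, 0.64 and 0.91 in D2A1 and -0.22, -0.13 and -0.14 in D2.OR (interaction -0.70, SE 0.199, adjusted p = 0.156). Hnrnpa1 followed with 0.16, 0.49 and 1.09 in D2A1 and -0.37, -0.11 and -0.22 in D2.OR (-0.79, SE 0.242, adjusted p = 0.169), then Snrpc (-0.42, SE 0.139, adjusted p = 0.189). Without replicate 1, 18 members had a lower 3D effect in D2.OR (17.8% of all genes were called), and without the batch 1 library of D2A1 in 2D, 20 (14.5% of all genes). The line and culture comparisons share libraries, so their values are not independent of each other.

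The batches themselves were compared in the same model. No member passed the test between batch 1 and batches 2 and 3 (0 of 51, where 13.3% of all genes did), and 5 had an unadjusted p under 0.05 (29.1% of all genes). DESeq2 called 4 lower in batch 1, where it called 19.9% of all genes. A negative value, lower in batch 1, was found for 43 of 51, with a median of -0.10 for members and 0.012 for all genes. The members' median was -0.17 without the batch 1 library of D2A1 in 2D and -0.05 without that of D2A1 in 3D. Hnrnpc (-0.22, adjusted p = 0.068), Hnrnph2 (-0.15, adjusted p = 0.124) and Sf3a1 (-0.14, adjusted p = 0.138) had the smallest p. Without the batch 1 library of D2A1 in 2D, 14 members were lower in batch 1 (20.6% of all genes were called), and without its batch 3 library, 4 (16.0%).

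The rest of the splicing machinery was read from lists of genes outside the rule. Of 59 other spliceosome proteins, 7 were higher and 22 lower in D2.OR in 2D, and 4 were higher and 30 lower in 3D, with medians of -0.17 and -0.27. Of all genes tested, 25.4% were higher and 24.4% lower in 2D, and 27.7% and 26.1% in 3D, which is also the background for the lists that follow. Plrg1, a subunit of the Prp19 complex, was at 113 to 126 TPM in D2A1 and 61.2 to 64.2 TPM in D2.OR in 2D, and at 108 to 113 TPM and 58.3 to 63.2 TPM in 3D (log2 fold changes -0.83 and -0.90, adjusted p = 3.79e-05 and 2.21e-05). Bcas2, of the same complex, was at 193 to 225 TPM in D2A1 and 69.3 to 90.4 TPM in D2.OR in 2D (-1.24, adjusted p = 2.68e-05). Rbm8a, a core protein of the exon junction complex, was at 198 to 210 TPM in D2A1 and 96.2 to 104 TPM in D2.OR in 3D (-0.98, adjusted p = 2.7e-05). Of 15 genes for snRNP assembly, the machinery that loads the Sm ring, 1 was higher and 8 lower in 2D, and 1 higher and 10 lower in 3D. Coil, the scaffold of Cajal bodies, led with -0.82 and -1.32 (adjusted p = 0.000536 and 3.47e-05), followed by Strap with -0.59 and -0.87 (adjusted p = 0.00474 and 0.000518).

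Of 25 other splicing regulators tested, 8 were higher and 7 lower in 2D, and 10 higher and 7 lower in 3D. Khdrbs3, a STAR-family regulator, was at 15.3 to 21.2 TPM in D2A1 and at most 0.03 TPM (2 counts) in D2.OR, at least 333-fold lower in 2D and 389-fold lower in 3D with 3 counts per library as the floor (adjusted p = 7.51e-07 and 7.33e-07). Ptbp2, the neural relative of Ptbp1, was at 58.6 to 85.8 TPM in D2A1 and 20.8 to 32.7 TPM in D2.OR (log2 fold changes -1.50 and -1.55, adjusted p = 7.52e-06 and 5.87e-06). Esrp2, an epithelial regulator named here after its values were seen, was at 1.52 to 3.39 TPM in D2A1 and 4.81 to 9.71 TPM in D2.OR (2.04 and 1.41 on the log2 scale, adjusted p = 8.37e-05 and 0.000537). Of 8 SR protein kinases tested, 1 was higher and 2 lower in 2D and 1 higher and 3 lower in 3D, beside 49.8% and 53.8% of all genes called in either direction. Clk2 had the smallest p in both cultures (-1.02 and -0.75, adjusted p = 7.17e-05 and 0.000343), followed by Srpk2 in 2D (-0.88, adjusted p = 0.000849) and Srpk1 in 3D (-0.49, adjusted p = 0.00464). Of 10 genes of nonsense-mediated decay, 3 were higher and 3 lower in 2D and 2 higher and 4 lower in 3D. They were led by Smg8 (-0.55 and -0.90, adjusted p = 0.00113 and 6.37e-05), with Upf1 next in 2D (0.54, adjusted p = 0.00225) and Upf3b next in 3D (-0.77, adjusted p = 0.000863). Within a line, Magoh (0.54, adjusted p = 0.0496) and Coil (0.54, adjusted p = 0.0478) were the only genes of these 5 lists that passed in 3D against 2D of D2A1, and none passed in D2.OR.

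Many splicing factor genes regulate their own transcripts by an alternative exon, so the average transcript length per gene was read as a second measure. RSEM gives each gene a length weighted by the abundance of its transcripts, and a change in it means that the mix of transcripts changed. Of 43 members with more than 1 transcript and enough signal, 1 differed between the lines in 2D (1.93% of the 9102 genes tested did) and 3 in 3D (3.48%). Srsf6 had a weighted length of 2677, 2975 and 2931 bases in D2A1 in 2D and 2531, 2615 and 2561 bases in D2.OR (log2 ratio -0.15, SE 0.025, adjusted p = 0.0333, limma). In 3D, Hnrnpu was at 3171, 3211 and 3177 bases in D2A1 and 3455, 3409 and 3366 bases in D2.OR (0.10, SE 0.012, adjusted p = 0.0108). Srsf3 was at 1936, 1915 and 1947 bases in D2A1 and 2034, 2012 and 2006 bases in D2.OR (0.06, SE 0.008, adjusted p = 0.0136). Snrpg was at 525, 529 and 555 bases in D2A1 and 583, 582 and 600 bases in D2.OR (0.13, SE 0.027, adjusted p = 0.049). The groups did not overlap for these 4 genes, which were picked by their p, and the share over all genes was not counted. The median absolute log2 ratio over the members was 0.0106 in 2D and 0.013 in 3D, smaller than the 0.0203 and 0.0231 over all genes tested. Next in rank in 2D were Srsf3 (0.03, adjusted p = 0.129) and Hnrnpa3 (-0.09, adjusted p = 0.17). No member passed in 3D against 2D of D2A1, in 3D against 2D of D2.OR or in the interaction (limma), where 0.0%, 0.033% and 0.0% of all genes passed and 4, 4 and 5 members had an unadjusted p under 0.05 (10.8%, 8.31% and 7.86% of all genes). In D2A1 the smallest p were those of Hnrnpu (-0.06, adjusted p = 0.27), Snrpa1 (0.03, adjusted p = 0.394) and Hnrnph1 (0.12, adjusted p = 0.41), and in D2.OR those of Srsf3 (0.04, adjusted p = 0.32), Hnrnph3 (-0.11, adjusted p = 0.446) and Sf3b6 (0.04, adjusted p = 0.566). In the interaction they were Hnrnpu (0.07), Snrpg (0.13) and Srsf6 (0.09), with adjusted p from 0.505 to 0.614. Over 6 alternatives the length calls of Srsf6 in 2D and of Hnrnpu and Srsf3 in 3D were each kept in 3, and that of Snrpg in 1. Without any 1 of the replicates the 3D count fell to 0.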

How the data were processed

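Total RNA of the 12 libraries was sequenced by the authors, and per the labels and methods the reads were checked with FastQC 0.11.4, trimmed with Trimmomatic 0.32, aligned with STAR 2.5.3 and counted with RSEM 1.3.0 on GRCm38 with GENCODE release M15. RSEM's deposited expected counts divide a read that fits several genes, and the authors' TPM and FPKM values rescale them for length and depth. FPKM was not used. Whether the libraries kept strand is not given in the sources used here. Groups, batches and lanes were taken from the labels.

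Expected counts were rounded and tested with edgeR 4.0.16 (R 4.3.3, TMM, filterByExpr, quasi-likelihood test, group and batch terms, 12 libraries, 6 residual degrees of freedom, Benjamini-Hochberg over 16823 genes, threshold 0.05). RSEM's weighted transcript length (genes with more than 1 transcript and a TPM of at least 1 in every library) was tested with limma 3.58.1 and the same terms. Alternatives used DESeq2 1.42.0, limma on log2 TPM, other filters and scalings, and fewer libraries. Scripts were tested on simulated data. The replicate number paired the libraries, since it marks the batch in the labels. Deviations from the group means correlated at 0.0758 to 0.511 (median 0.267) in the 18 same-number pairs. The 36 other pairs between groups were at -0.432 to 0.296 (median -0.195). Centering on means of 3 libraries itself pushes these other pairs to negative values when same-number pairs are positive. No 2 libraries held identical counts.

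Members and lists were chosen with earlier results of these data known. Named with values were, per comparison, the 4 called members farthest above 0 and the 4 farthest below, or the 3 with the smallest p where fewer than 3 passed, in each family the member with the highest mean and the one with the widest range of group means, members below the filter, the 3 smallest p of the length test, and the 2 smallest p of each other list (line comparisons). Other members were named to account for each family.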

Additional observations from a re-analysis of the deposited data

Results flagged for a closer look

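For 5 members the 3D library lay above the 2D library of D2A1 and below that of D2.OR in all 3 batches. The share of all genes with this pattern was not counted, so the 5 cannot be read against a background. These were Snrpe (interaction -0.697 on the log2 scale, adjusted p = 0.156), Hnrnpa1 (-0.789, adjusted p = 0.169), Snrpc (-0.419, adjusted p = 0.189), Snrpb2 (-0.387, adjusted p = 0.198) and Snrpa (-0.336, adjusted p = 0.198). The difference between the lines was tested with the edgeR interaction term and did not pass for any of them. In D2A1 the effect was smallest in batch 1 for 4 of the 5, with 0.09 for Snrpe and 0.16 for Hnrnpa1. Snrpa had its smallest effect in batch 2, at 0.03.

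Outside the protein-coding genes, 5 processed pseudogene rows matched the same names. Snrpert was listed at up to 49.85 TPM, and the other 4 at 0.41 TPM or less.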

How the results depend on the processing

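Of the values of the members named by rule, 622 kept direction and side of the threshold under the alternatives, 28 passed only there, 8 no longer passed and 0 changed direction past the threshold. The tally holds only the members with the largest called effects, or the smallest p, in each comparison. Less stable calls given above, such as those of Sf3b2 and Hnrnpu in 3D, are outside it. Shares of all genes called in the same settings stand in parentheses. In 2D the line count of 13 became 20 with the library total (52.3%), 4 to 22 without 1 replicate number (4 without replicate 2; 24.9% to 53.8%) and 10 to 24 without 1 library (37.4% to 51.2%). In 3D the count of 28 became 15 to 27 without 1 replicate number (31.0% to 56.9%) and 18 to 31 without 1 library (42.2% to 59.5%). In 3D against 2D of D2A1, 0 became 17 with DESeq2 (23.1%), 1 with DESeq2 size factors (4.71%), 2 with at least 10 counts in every library (5.98%), 1 with limma on log2(TPM + 0.1) (6.75%), 3 with no filter (3.75%), and 0 to 31 without 1 replicate number or library (0.0% to 36.3%). The interaction gave 2 with DESeq2 (5.96%) and 0 to 20 when libraries were left out (0.0% to 17.8%), and the batch comparison 4 (19.9%) and 0 to 14 (0.729% to 20.6%). D2.OR culture stayed at 0 throughout (0.0% to 8.38%). For transcript lengths, the 2D count of 1 was 0 without the replicate block and 0 to 1 without 1 replicate number, and the 3D count of 3 was 0 without any replicate number. The cause of these changes was not tested.

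Without the replicate block, which paired libraries by batch, 16 members passed in 2D (10 higher, 6 lower, and 43.9% of all genes), 27 in 3D (4 higher, 23 lower, and 47.8% of all genes) and 0 in the culture comparisons and the interaction. Depth limited Snrpn, with at most 246 counts, and Srsf12, with at most 2.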

Other observations

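Genes beside Snrpn on chromosome 7, named after their values were seen, did not share its pattern as a group. Snurf, on the same transcript, was listed at 0 TPM in all D2A1 libraries and at 2.9 to 7.08 TPM in D2.OR. Snhg14, the long noncoding RNA downstream, was at 3.68 to 8.52 TPM in D2A1 and 4.15 to 5.07 TPM in D2.OR. Ube3a, a ubiquitin ligase gene, was at 37.4 to 47.6 TPM in D2A1 and 33.9 to 40.5 TPM in D2.OR. Mkrn3 went the other way, at 2.16 to 3.18 TPM in D2A1 and at most 0.03 TPM in D2.OR, while Ndn and Magel2 were at most 0.02 TPM in every library. Snurf and Snrpn share reads, so RSEM's division between them is uncertain.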
